A study of Mus musculus with 6 samples.

Results

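RNA sequencing counts of primary cultured mouse renal tubular epithelial cells (RTECs) were examined for 10 genes that encode collagen crosslinking and hydroxylation enzymes, out of 46517 genes in the files. The members were chosen by name and comprise the lysyl oxidases Lox, Loxl1, Loxl2, Loxl3 and Loxl4, the lysyl hydroxylases Plod1, Plod2 and Plod3, and the prolyl 4-hydroxylase α subunits P4ha1 and P4ha2. All 10 had enough counts to be tested, among 15862 genes tested in all. The RTECs were grown from kidneys of wild type FvB mice aged 4 to 6 weeks by the sample labels. All cultures spent 24 h without serum, and 3 were then given 50 ng/ml TGF-β1, a profibrotic cytokine, for 24 h, while 3 served as controls (CTL). The labels do not say how many animals each culture came from, so p-values measure the spread between these cultures, which may be technical.

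Fibrillar collagens leave the cell as procollagen, and their stability depends on enzymes that act before and after secretion. In the endoplasmic reticulum, prolyl 4-hydroxylase, a complex of an α subunit with the protein disulfide isomerase P4hb, hydroxylates prolines and so stabilises the triple helix, while lysyl hydroxylases (the Plod genes) modify lysines. Outside the cell, the copper-dependent lysyl oxidases turn lysines and hydroxylysines into aldehydes, from which covalent crosslinks form between collagen molecules and, for some members, in elastin. Hydroxylation of the telopeptides at the ends of collagen, the known role of Plod2, directs crosslinks toward a form that resists breakdown and is abundant in fibrotic tissue.

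The lysyl oxidases share a catalytic domain in which 3 histidines hold the copper ion. The coding stretch of 33 bases (11 codons) with these histidines is shown for the Loxl members because it is what makes them 1 family, and because the strongest response below was that of Loxl2. The stretches were read from the GRCm38 genome with GENCODE M21 gene models, run 5′ to 3′ on the coding strand, and cross a junction between exons. Capitals mark the codons of the 3 histidines. They lie in exons 3 and 4 of Loxl1 (chr9:58293720-58294381, minus strand), exons 10 and 11 of Loxl2 (chr14:69682316-69689037, plus strand), exons 10 and 11 of Loxl3 (chr6:83049995-83050125, plus strand) and exons 11 and 12 of Loxl4 (chr19:42598807-42599899, minus strand).
Loxl1: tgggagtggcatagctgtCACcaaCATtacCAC
Loxl2: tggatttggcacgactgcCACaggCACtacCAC
Loxl3: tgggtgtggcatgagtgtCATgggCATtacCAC
Loxl4: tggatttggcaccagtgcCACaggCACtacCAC
Loxl2 and Loxl4 were identical at 31 of the 33 bases (93.9%), and the other pairs at 63.6% to 75.8%. The 2 most alike in this stretch were not alike in level, since Loxl2 was among the most abundant members and Loxl4 the least abundant. Whether their responses differed was not tested.

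Counts on genes summed to between 28313080 and 34183497 per culture. Levels are given as CPM (counts scaled to a common library total) after TMM scaling, which corrects library sizes for composition. As a check of the treatment, Smad7, the inhibitory Smad that TGF-β induces, was at 107.7 to 119.9 CPM in CTL and 150.5 to 184.2 CPM in TGF-β1–treated RTECs, with a log2 fold change of 0.55 (SE 0.09, adjusted p = 0.0140, edgeR). Markers of tubule epithelium were present in every culture, yet the summed level of 10 of them was lowest in replicate 2 of each group, at 1597 CPM in CTL and 1445 CPM with TGF-β1, against 2750 to 4071 CPM in the other cultures. For most members, values without a replicate 2 culture are given beside the results. The labels number the replicates but state no pairing. Cultures with the same number deviated from their group means together, so a fit with the replicate number as a block is given beside the fit without it. That block rests on a pairing read from these same counts.

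Loxl2 showed the highest fold change of the 10 enzymes, with 2.30-fold more counts in TGF-β1–treated RTECs, followed by Plod2 with 1.51-fold and Loxl3 with 1.46-fold. Without the block, 0 of the 10 members passed an adjusted p of 0.05 in edgeR's quasi-likelihood test, where 5.00% of all genes tested were called higher and 6.69% lower. Only Loxl2 had an unadjusted p under 0.05, as did 28.6% of all genes. DESeq2 called 1 member higher, again Loxl2 (7.57% of all genes), and limma-voom called 0. With the replicate number as a block, 5 members rose (Lox, Loxl1, Loxl2, Loxl3 and Plod2) and 0 fell, against 15.1% of all genes higher and 19.1% lower. The log2 fold change was above 0 for 9 of 10 members in the fit without the block, with a median of 0.22 over the members and 0.00 over all genes tested, and 8 members were higher with TGF-β1 in all 3 same-numbered pairs, as were 30.4% of all genes.

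**Figure D1:**
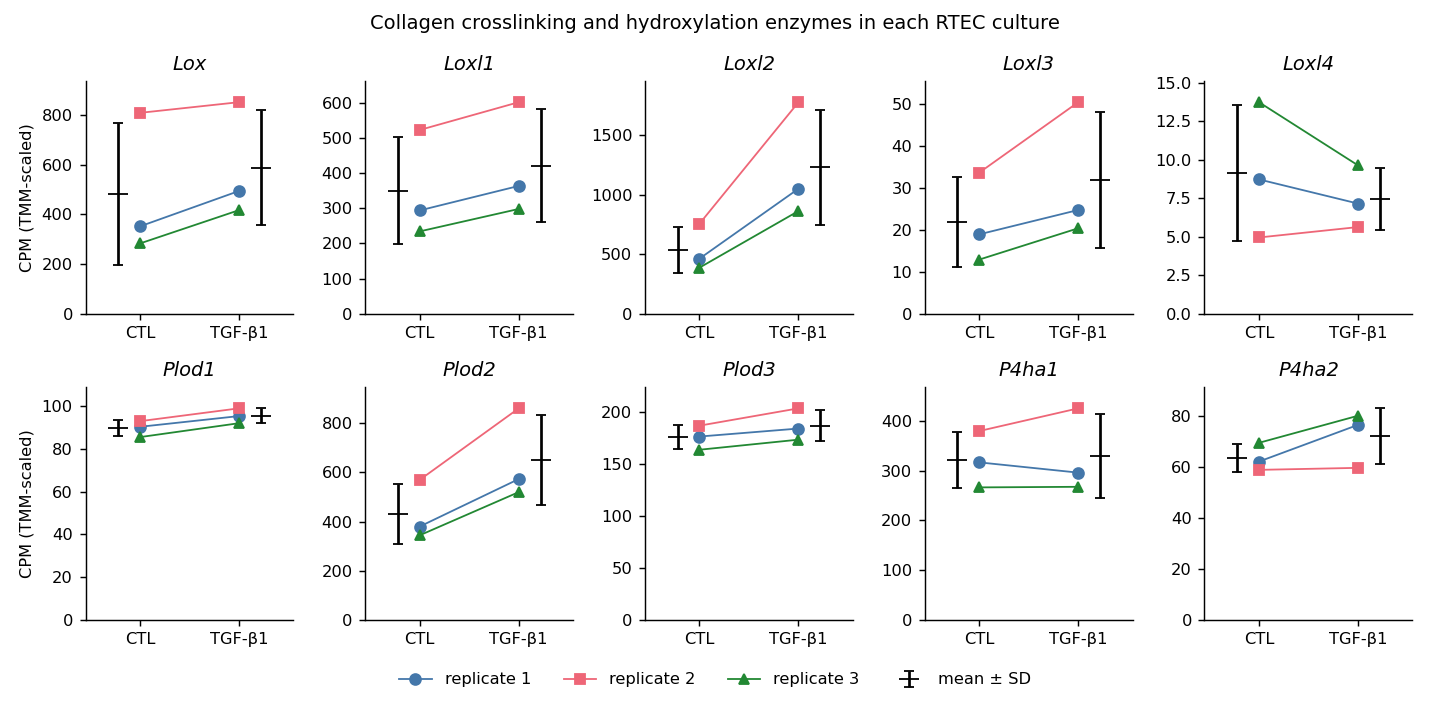
TMM-scaled CPM (y axis, linear from 0) of the 10 enzymes in each culture, with lines joining CTL and TGF-β1–treated cultures of the same replicate number and bars giving the mean ± SD of 3 cultures. Replicate 2 is highest in each group for every enzyme except Loxl4 and P4ha2. Only for Loxl2 do all 3 treated cultures lie above all 3 CTL cultures.

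Loxl2 (ENSMUSG00000034205, chr14:69609068-69695834, plus strand) encodes a secreted lysyl oxidase that crosslinks fibrillar and basement membrane collagen. Its level was 462.2, 755.7 and 386.6 CPM in CTL replicates 1, 2 and 3 and 1050, 1777 and 862.6 CPM in the TGF-β1–treated replicates. Every treated culture was above every CTL culture, and 17.2% of all genes separated in this direction. The log2 fold change was 1.20 (SE 0.36) without the block, with a p of 0.0153 and an adjusted p of 0.0872 from edgeR, and 98.6% of genes tested had a lower one. With the block, the log2 fold change was 1.19 (SE 0.05, adjusted p = 4.49e-06, edgeR). The same-numbered pairs differed by 1.18, 1.23 and 1.16 on the log2 scale, so the pairs agreed closely while the cultures themselves ranged widely. Leaving out both cultures of replicate 2 gave 1.17 (adjusted p = 0.00635, edgeR without the block, 6.79% of genes called higher), and Loxl2 stayed past the threshold with the block whichever pair was left out.

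The count of Loxl2 is uncertain. Of its 5356 distinct stretches of 50 bases, the length of the reads, 2411 (45.0%) also occur in transcripts of other annotated genes, against at most 9.81% for any other member. Most are shared with Gm21451 (chr14:69390854-69480287), annotated as an unprocessed pseudogene on the same chromosome, in which 84.3% of such stretches match Loxl2. HTSeq counting leaves out reads that align to more than 1 place, so the level of Loxl2 can be understated. Gm21451 itself had 67, 131 and 63 counts in CTL and 158, 241 and 99 with TGF-β1, at most 0.561% of the Loxl2 counts. It was followed after its sequence overlap was seen. Adding its counts to those of Loxl2 left the log2 fold change at 1.20 (adjusted p = 0.0875) without the block and 1.19 (adjusted p = 4.65e-06) with it, both from edgeR. Counts this few could hardly move the estimate. The addition does not restore the reads left out for aligning to more than 1 place, so it does not settle the uncertainty.

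Lox (ENSMUSG00000024529, 52516067 to 52529867 on the minus strand of chromosome 18), the founding member that crosslinks collagen and elastin, was at 351.3, 808.1 and 282.5 CPM in CTL and 493.8, 851.1 and 416.6 CPM with TGF-β1. CTL replicate 2 was thus above 2 of the 3 treated cultures, and replicate 2 exceeded the mean of the other cultures of its group 2.55-fold in CTL and 1.87-fold with TGF-β1. The log2 fold change was 0.29 (SE 0.47, adjusted p = 0.735) without the block and 0.37 (SE 0.09, adjusted p = 0.0222) with it, in edgeR. Without the block, it turned to -0.082 when TGF-β1 replicate 2 was left out and was 0.89 without CTL replicate 2. The pair differences of 0.49, 0.07 and 0.56 show that replicate 2 changed least. With the block, Lox passed the threshold without replicate 2 or 3 but not without replicate 1, where its adjusted p was 0.147 (edgeR).

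Loxl1 (chr9:58287738-58313186, minus strand) takes part in elastic fibre assembly. Its level was 293.8, 522.8 and 234.1 CPM in CTL and 363.5, 601.9 and 298.0 CPM with TGF-β1, and the groups overlapped. The log2 fold change was 0.27 (SE 0.38, adjusted p = 0.699) without the block and 0.29 (SE 0.05, adjusted p = 0.00297) with it, in edgeR. Without the block, it turned to -0.087 when TGF-β1 replicate 2 was left out. Loxl1 was above the threshold with the block when replicate 1 was left out (adjusted p = 0.0721, edgeR).

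Loxl3 (chr6:83034173-83052562, plus strand), a lysyl oxidase with roles in craniofacial and spinal collagen, was expressed far lower. It was at 18.9, 33.7 and 12.9 CPM in CTL and 24.8, 50.5 and 20.4 CPM with TGF-β1. Its log2 fold change was 0.54 (SE 0.47, adjusted p = 0.502) without the block and 0.54 (SE 0.07, adjusted p = 0.000667) with it, in edgeR. Without the block, it was 0.042 when TGF-β1 replicate 2 was left out and 1.00 when CTL replicate 2 was left out. Of its exon bases, 11.6% overlap the opposite-strand gene Htra2, and reads there cannot be assigned without strand.

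Loxl4 (chr19:42593982-42612813, minus strand) was the least abundant member and the only one with a negative log2 fold change. Its level was 8.72, 4.95 and 13.7 CPM in CTL and 7.15, 5.63 and 9.64 CPM with TGF-β1. Here replicate 2 was lowest in each group, the opposite of the other lysyl oxidases, and 1 of the 3 pairs was higher with TGF-β1. The log2 fold change was -0.29 (SE 0.39, adjusted p = 0.683) without the block and -0.24 (SE 0.13, adjusted p = 0.204) with it, in edgeR. With the block and without replicate 2, Loxl4 fell by 0.41 on the log2 scale (adjusted p = 0.0151, edgeR), where 2718 of 15955 genes were lower.

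Plod2 (chr9:92542223-92608428, plus strand), the telopeptide lysyl hydroxylase, changed by the same amount in each pair. Its level was 380.0, 570.0 and 344.3 CPM in CTL and 573.3, 861.3 and 520.1 CPM with TGF-β1. The treated replicate 3 was below CTL replicate 2, so the groups overlapped, but the pair differences were 0.59, 0.60 and 0.60 on the log2 scale. The log2 fold change was 0.59 (SE 0.27, adjusted p = 0.205) without the block and 0.59 (SE 0.04, adjusted p = 6.24e-05) with it, in edgeR. Without both replicate 2 cultures and with no block, it was 0.60 with an adjusted p of 0.00871 (edgeR).

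The other lysyl hydroxylases varied little. Plod1 (chr4:147909753-147936767, minus strand), which modifies lysines of the helix, was at 90.4, 93.1 and 85.6 CPM in CTL and 95.5, 99.1 and 92.1 CPM with TGF-β1. Its log2 fold change was 0.09 (SE 0.05) with an adjusted p of 0.308 without the block and 0.127 with it, in edgeR. Plod3 (chr5:136987019-136996648, plus strand), which also adds glucose to hydroxylysine that carries galactose, was at 176.4, 186.9 and 163.7 CPM in CTL and 184.1, 203.6 and 173.4 CPM with TGF-β1. Its log2 fold change was 0.09 (SE 0.08) with an adjusted p of 0.507 without the block and 0.135 with it, in edgeR. Both were slightly higher with TGF-β1 in all 3 pairs, and neither passed the test in either fit. Of the Plod3 exon bases, 11.9% overlap other genes, among them Znhit1 on the opposite strand.

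P4ha1 (chr10:59323296-59373304, plus strand), the major catalytic α subunit of prolyl 4-hydroxylase, was at 316.4, 379.4 and 266.1 CPM in CTL and 295.8, 425.0 and 267.3 CPM with TGF-β1. The pairs differed by -0.10, 0.16 and 0.01 on the log2 scale and so pointed in different directions. Its log2 fold change of 0.04 (SE 0.21, adjusted p = 0.928, edgeR) was the nearest to 0 of all members and turned to -0.05 without both replicate 2 cultures. P4ha2 (chr11:54100095-54131665, plus strand), an alternative α subunit, was at 62.1, 58.8 and 69.5 CPM in CTL and 76.5, 59.6 and 80.1 CPM with TGF-β1. Its log2 fold change was 0.18 (SE 0.12, adjusted p = 0.391) without the block and 0.18 (SE 0.06, adjusted p = 0.0534) with it, in edgeR. With the block and without replicate 2, it rose by 0.25 on the log2 scale (adjusted p = 0.00410, edgeR).

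**Figure D2:**
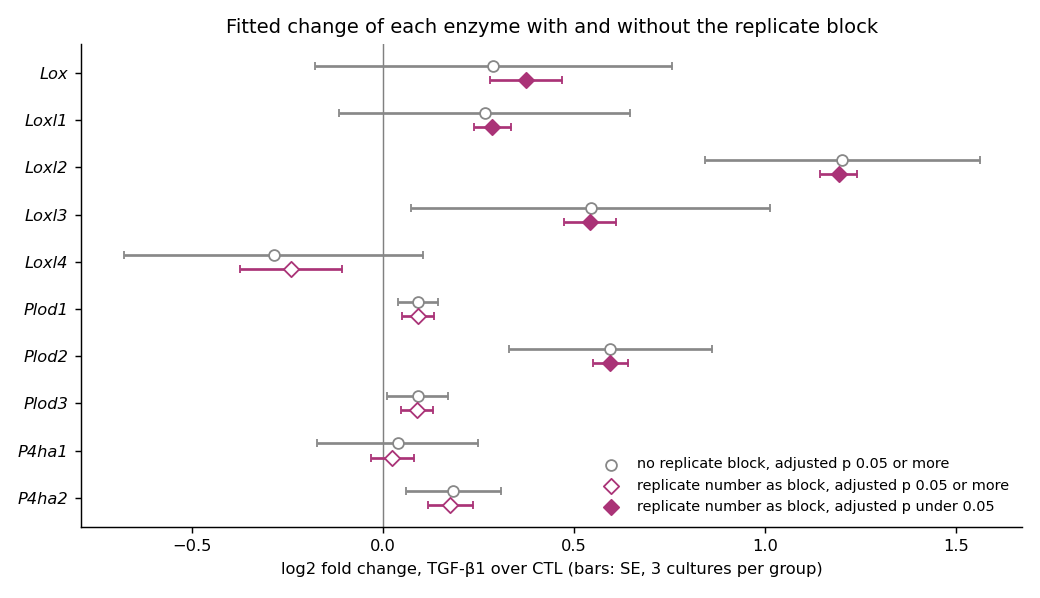
Log2 fold change of TGF-β1 over CTL (x axis, bars are SE, 3 cultures per group) for each enzyme in the fit without the replicate block (circles) and with it (diamonds), filled where the adjusted p was under 0.05. The positions hardly differ between the fits, while the SE of Loxl2 shrinks from 0.36 to 0.05 and 5 diamonds are filled.

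Replicate 2 was above the other cultures of its group for each member called with the block, by the ratios given above for Lox. It exceeded the mean of the other cultures of its group 1.78-fold in CTL and 1.86-fold with TGF-β1 for Loxl2, 1.98-fold and 1.82-fold for Loxl1, 2.11-fold and 2.24-fold for Loxl3, and 1.57-fold and 1.58-fold for Plod2. For Plod1 the ratio was 1.06-fold in each group. The lower tubule marker sum of replicate 2 moved with these levels, and its part in them was not tested. With the block, leaving out replicate 1 left 3 members higher (Loxl2, Loxl3 and Plod2, against 6.43% of genes), leaving out replicate 2 left 6 (Lox, Loxl1, Loxl2, Loxl3, Plod2 and P4ha2, against 14.3%) and leaving out replicate 3 left 5 (16.1%).

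Within a family, members can be ordered by CPM per kb of exon. In CTL, Loxl1 was at 106 ± 46.2 (SD, n = 3), Lox at 101 ± 59.8 and Loxl2 at 98.9 ± 36.1 CPM per kb, and these 3 did not differ beyond their spread, whereas Loxl3 at 4.75 ± 2.32 and Loxl4 at 2.17 ± 1.05 were far below them. With TGF-β1, Loxl2 stood at 228 ± 89.4 CPM per kb, above Loxl1 at 128 ± 48.5 and Lox at 123 ± 48.5, and Loxl3 was at 6.93 ± 3.54 and Loxl4 at 1.77 ± 0.48. All counts of a gene were also divided by only the exon length whose 50-base stretches occur in no other gene. Loxl2 was then at 182 ± 66.2 in CTL and 418 ± 164 with TGF-β1. Loxl1 was at 108 ± 46.9 and 130 ± 49.2, and Lox at 102 ± 60.4 and 124 ± 49.0. Loxl2 had the highest mean in both groups, but in CTL these 3 overlapped within their SDs. Such a scaling takes the shared stretches to give no counts, which was not tested. Plod2 led the lysyl hydroxylases, at 80.0 ± 22.5 in CTL and 121 ± 34.0 CPM per kb with TGF-β1, followed by Plod3 at 38.9 ± 2.57 and 41.4 ± 3.38 and Plod1 at 13.3 ± 0.56 and 14.1 ± 0.52. P4ha1 was at 77.9 ± 13.8 and 80.1 ± 20.4, and P4ha2 at 10.2 ± 0.87 and 11.6 ± 1.75 CPM per kb.

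Expressed as a share of its family's summed level per kb, Lox, Loxl1 and Loxl2 varied little among the treated cultures. Loxl2 made up 33.6%, 29.4% and 34.4% of the lysyl oxidase level in CTL and 46.8%, 46.9% and 46.4% with TGF-β1, a difference of 14.2 percentage points. The shares of Lox (31.0% ± 3.96 to 25.2% ± 0.27, SD, n = 3) and Loxl1 (34.2% ± 0.86 to 26.3% ± 0.28) were lower in every treated culture. Each of these 3 differences had p = 0.1 in a two-sided exact permutation test, the smallest that 3 cultures against 3 allow, and an adjusted p of 0.333 over the 10 shares, so this test cannot reach 0.05 with these groups. Shares within a family are not independent, since a higher share of Loxl2 lowers the others. Plod2 made up 59.9% ± 5.06 of the lysyl hydroxylase level in CTL and 67.9% ± 4.26 with TGF-β1 (exact permutation p = 0.2, overlapping groups), and P4ha1 made up 88.2% ± 2.72 and 86.8% ± 4.19 of the 2 α subunits (exact permutation p = 0.8). The lysyl oxidase shares depend on the scaling. Per kb of unshared 50-base stretches, Loxl2 made up 46.5% ± 3.11 in CTL and 61.3% ± 0.23 with TGF-β1. Loxl1 then made up 27.1% ± 0.42 and 19.1% ± 0.21, and Lox 24.5% ± 3.58 and 18.2% ± 0.21.

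**Figure D3:**
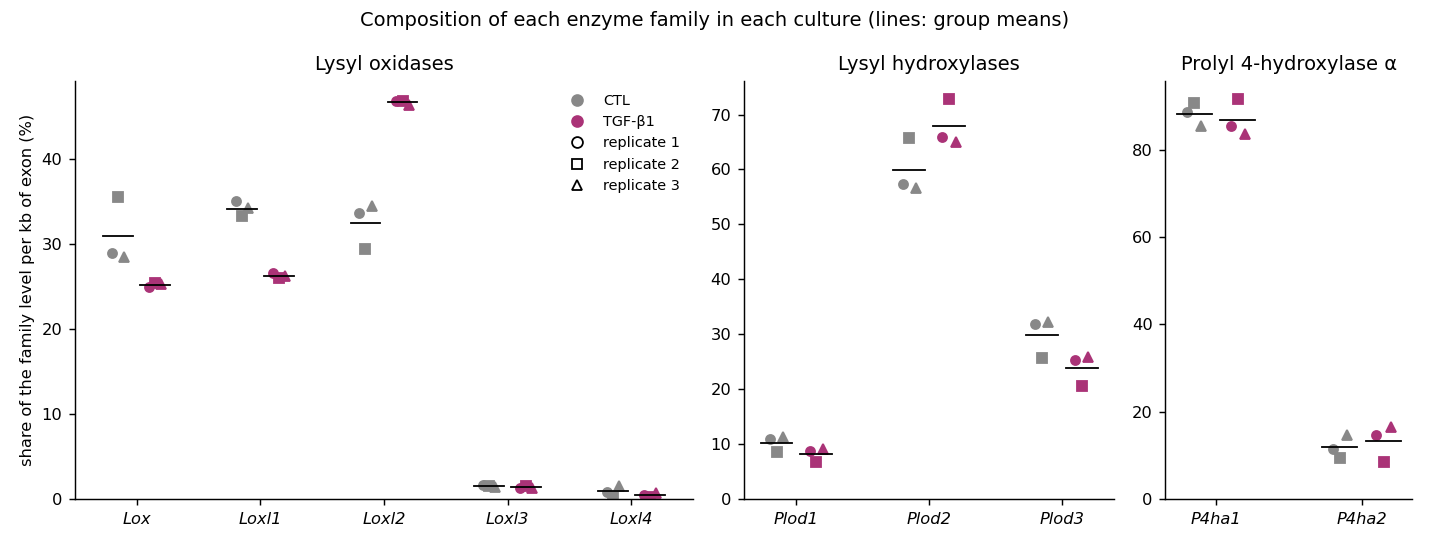
Share of each enzyme (y axis, percent of its family's summed CPM per kb of exon, from 0) in the 3 CTL and 3 TGF-β1–treated cultures, with lines at the group means and symbols for the replicate numbers. The Loxl2 share is 29.4% to 34.4% in CTL and 46.4% to 46.9% with TGF-β1, while the P4ha1 and P4ha2 shares overlap between the groups.

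The genes that act with these enzymes were described by 9 lists. Of 14 collagen folding and modification partners, 0 rose and 1 fell without the block, and 7 rose and 3 fell with it. The gene that fell was P3h2, a prolyl 3-hydroxylase known for modifying basement membrane collagen, at 29.5, 38.9 and 27.8 CPM in CTL and 7.89, 13.1 and 7.98 CPM with TGF-β1 (log2 fold change -1.73, SE 0.24, adjusted p = 0.0123, edgeR). P4hb, the partner of the α subunits, had a log2 fold change of 0.26 (adjusted p = 0.243 without the block and 0.0246 with it, edgeR). Serpinh1, the collagen chaperone HSP47, had 0.15 (adjusted p = 0.529, edgeR), and P4ha3, the third α subunit, was at 1.21 to 4.83 CPM with a log2 fold change of -0.23 (adjusted p = 0.844, edgeR).

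Of the 7 procollagen processing genes tested of 8 listed, 2 rose and 1 fell in either fit. Bmp1, the protease that removes procollagen C-propeptides and also activates pro-lysyl oxidase, was at 465.4 to 549.5 CPM in CTL and 763.0 to 934.3 CPM with TGF-β1 (log2 fold change 0.76, SE 0.10, adjusted p = 0.0103, edgeR). Its groups did not overlap, and it changed without a gap between replicate 2 and the others. Of its enhancers, Pcolce2 rose by 0.95 (adjusted p = 0.0248) and Pcolce fell by 1.68 on the log2 scale (adjusted p = 0.0422), both in edgeR.

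Among substrates, 2 of the 10 fibrillar collagen chains tested rose without the block and 8 rose with it, and 0 fell in either fit. The list's median log2 fold change was 0.88. Col5a3, a chain of type V collagen, rose by 2.52 on the log2 scale (SE 0.48, adjusted p = 0.0276), and Col2a1 rose by 0.66 at a level of 1.24 to 2.32 CPM (adjusted p = 0.0476), both in edgeR. Of the 6 basement membrane collagen chains, 0 rose in either fit, 2 fell without the block and 5 fell with it, and the median was -0.47. Col4a5 fell by 0.84 (SE 0.05, adjusted p = 0.00130) and Col4a6 by 1.07 (SE 0.11, adjusted p = 0.00516), both in edgeR. Of the 12 elastic fibre genes tested, 0 rose and 1 fell without the block, and 4 rose and 3 fell with it. Efemp1, a fibulin, fell by 3.03 on the log2 scale (adjusted p = 0.0119, edgeR).

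Other matrix crosslinkers included a firm rise. Pxdn, the peroxidase that forms sulfilimine crosslinks in type IV collagen, was at 593.8 to 629.4 CPM in CTL and 1181 to 1198 CPM with TGF-β1 (log2 fold change 0.96, SE 0.06, adjusted p = 0.00121, edgeR). It was the 1 of 4 tested in its list to rise without the block, where 3 rose and 1 fell with it. Among 10 genes of copper and ascorbate supply, the cofactors of these enzymes, 1 rose without the block, the copper importer Slc31a1 (log2 fold change 0.30, adjusted p = 0.0170, edgeR), and 2 rose and 1 fell with it. Atp7a, the pump that loads copper into secreted enzymes, was at 53.6 to 55.8 CPM in all cultures, with a log2 fold change of 0.02 (adjusted p = 0.850, edgeR).

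P4ha1, P4ha2, Plod2 and Lox are known targets of hypoxia-inducible factors, so 15 other known targets were listed. Without the block 2 rose and 0 fell, namely Vegfa by 0.75 (adjusted p = 0.0237) and Egln1 by 0.31 (adjusted p = 0.0195) on the log2 scale, both in edgeR, and 3 rose and 2 fell with it. The list's median log2 fold change was 0.01. Of 10 TGF-β response genes, chosen for that known response, 6 rose without the block and 9 with it, among them Fn1 (log2 fold change 1.04, adjusted p = 0.00379), Pmepa1 (0.87, adjusted p = 0.0105) and Skil (0.76, adjusted p = 0.00379), all in edgeR.

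**Figure D4:**
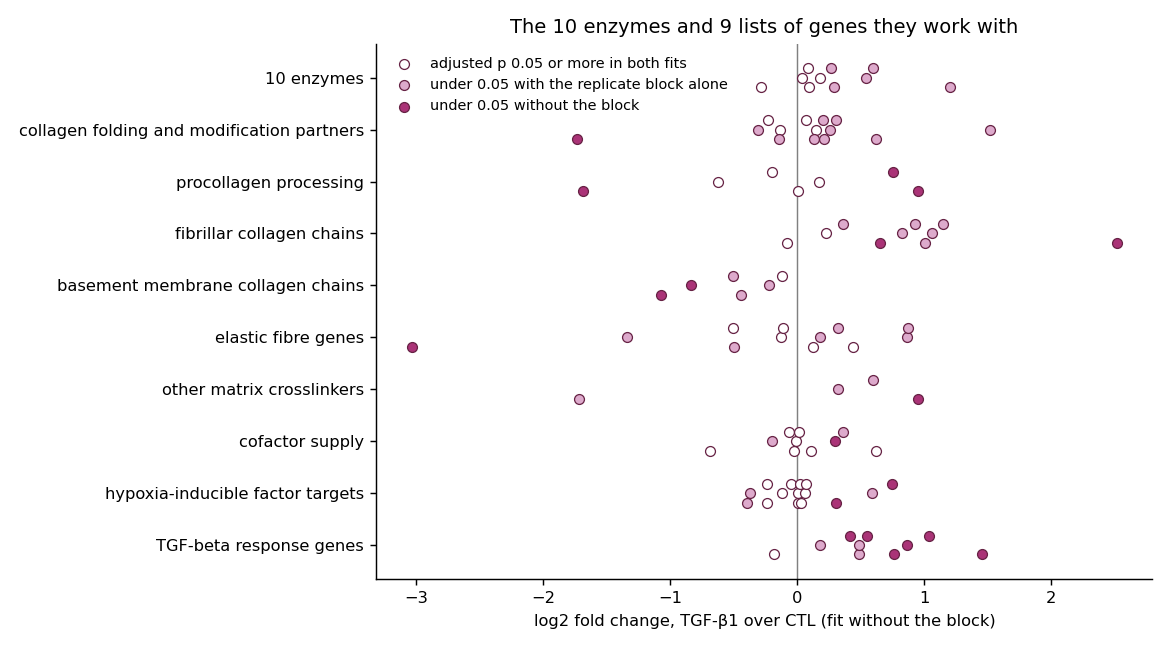
Log2 fold change of TGF-β1 over CTL (x axis, fit without the block) for each tested gene of the 10 enzymes and of 9 lists, 1 point per gene. Dark points passed the adjusted p of 0.05 without the block and pale points with the block alone. The basement membrane collagen chains all lie below 0, and the enzymes include pale points but no dark one.

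Markers of tubule epithelium and of other cells that a kidney culture could hold were examined in the same cultures. In bulk RNA, fewer cells of a type and less RNA per cell cannot be told apart. Of 10 fibroblast markers, 7 were tested and none passed the test without the block in edgeR, where 0 had an unadjusted p under 0.05, and 1 rose and 2 fell with the block. Their summed level was 534.9 to 786.8 CPM in CTL and 529.4 to 991.4 CPM with TGF-β1, most of it Postn and Pdgfrb, while Lum, Fap and Tcf21 stayed under 1 CPM in every culture. In replicate 2 of each group Pdgfrb was highest, at 227.3 CPM in CTL and 114.8 CPM with TGF-β1, and Postn was lowest, at 330.9 and 403.8 CPM. The summed endothelial markers were at 2.76 to 5.82 CPM and the leukocyte markers at 6.84 to 21.4 CPM, with Cldn5 at 0 in all cultures. Without the block, 0 endothelial markers passed in edgeR (0 at an unadjusted p under 0.05). Csf1r was the 1 leukocyte marker that passed, and it fell by 1.32 on the log2 scale (adjusted p = 0.0238, edgeR). Of the 10 tubule markers, Cdh16 fell by 1.50 (adjusted p = 0.00922) and Pax8 by 0.77 (adjusted p = 0.00436) on the log2 scale without the block in edgeR, and 7 fell with it.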

How the data were processed

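Poly(A) RNA of 3 CTL and 3 TGF-β1–treated RTEC cultures was sequenced as single-end reads. The authors trimmed reads with Trim Galore, aligned them to GRCm38 with STAR 2.4.1d and counted them per gene with HTSeq 0.6.1 (submitters' processing notes). The deposited values are raw read counts, and the annotation release behind them was not given in the sources used here. Reads on several genes (1.88% to 1.97%) or several places (18.7% to 19.4%), and other rows naming no gene, were left out.

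The main test was that of edgeR 4.0.16 under R 4.3.3 (filterByExpr, TMM, robust quasi-likelihood F test, two-sided, Benjamini-Hochberg over 15862 genes, threshold 0.05), without a block. Alternatives used DESeq2 1.42.0, limma-voom (limma 3.58.1), other normalizations, filters and thresholds, the replicate block, and leaving out cultures. Same-numbered cultures correlated at 0.445, 0.738 and 0.648 in their deviations from group means over log2(CPM + 0.5), and other pairs at -0.688 to 0.289. The pairing behind the block was read from these correlations, since the labels state none. No library pair agreed within sampling noise (chi-square per degree of freedom at least 6.70). GENCODE M21 matched 46005 of 46517 identifiers. Counting 3 reads as a floor gives 0.0878 to 0.106 CPM, and floors cover counting error only, since reads had no molecular identifiers. Fits were run on simulated data with the same dispersion for every gene and no replicate effect. That run therefore does not bear on the use of the block here. The members and lists were chosen with earlier results of these data known. Text names all members, up to 4 genes per list and direction past the threshold by size, and Bmp1, P4hb, Serpinh1, Atp7a, P4ha3 and Smad7; 1 further gene is not reported here. Figures used matplotlib 3.10.9.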

Additional observations from a re-analysis of the deposited data

How the results depend on the processing

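Without the block, RLE normalization, library size only, both filters, limma-voom and the 0.01 threshold left 0 members called, and P4ha1 turned to -0.038 with library size only. DESeq2 called 1 member higher (Loxl2, 1.21). With the replicate number as a block, 5 were higher: Lox 0.37, Loxl1 0.29, Loxl2 1.19, Loxl3 0.54 and Plod2 0.59. Partner list genes past the threshold numbered 19, 54 with the replicate block and 6 at the 0.01 threshold. With no block and without replicate 1, 0 of all 15961 genes tested were called in either direction. The 0 members and 0 partner genes there are thus no result about these genes. Without replicate 2, 1084 of 15955 genes were higher and 1290 lower, with 2 members higher and 31 partner genes. Across all leave-outs without the block, 0 to 2 members were higher, 0 lower and 0 to 31 partner genes past the threshold. The log2 fold changes then ranged from -0.082 to 0.89 for Lox, -0.087 to 0.67 for Loxl1, 0.83 to 1.54 for Loxl2, 0.04 to 1.00 for Loxl3, -0.58 to 0.13 for Loxl4, 0.34 to 0.85 for Plod2, -0.19 to 0.18 for P4ha1 and 0.10 to 0.30 for P4ha2. The signs of Lox, Loxl1 and P4ha1 turned without TGF-β1 replicate 2 (-0.082, -0.087 and -0.19), and those of Loxl4 and P4ha1 without CTL replicate 3 (0.13 and -0.079). The cause was not tested.

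Leaving out pairs with the block, added after seeing the data, gave 3 to 6 members higher and 0 to 1 lower. Partner genes numbered 38, 56 and 58 without replicates 1, 2 and 3. Of all genes, 1026 were higher and 1649 lower of 15961 without replicate 1. Without replicate 2 these were 2288 and 2718 of 15955, and without replicate 3 they were 2581 and 3254 of 16023. The log2 fold changes were 0.28 to 0.53 for Lox, 0.26 to 0.33 for Loxl1, 1.17 to 1.21 for Loxl2 (1.20 without replicate 1) and 0.50 to 0.62 for Loxl3 (0.51 without replicate 2). They were -0.41 to -0.07 for Loxl4, 0.59 to 0.60 for Plod2, -0.045 to 0.085 for P4ha1 and 0.11 to 0.25 for P4ha2. The log2 ratio of Loxl2 to Lox per kb was 0.07 in CTL (-0.028 to 0.25 with a culture left out) and 0.89 with TGF-β1 (0.88 to 0.90). Per kb of unshared 50-base stretches, also added after seeing the data, it was 0.93 and 1.75. Without division by exon length it was 1.07 with TGF-β1, the ratio of Loxl1 to Lox turned to -0.39 and -0.47, and that of P4ha1 to P4ha2 was 2.33 and 2.17. The P4ha1 share difference ranged from -3.73 to 0.29 points and that of P4ha2 from -0.29 to 3.73 with a culture left out.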
